A study of Mus musculus with 5480 samples.

Results

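The genes described here are 8 neurotrophic ligands and receptors, followed through the mesenchyme (the connective tissue, smooth muscle and pericytes) of the developing mouse lung. They were taken by name from the 18072 genes of the count table, and all 8 are rows of it. They comprise the ligands Bdnf, Ntf3 and Gdnf, the neurotrophin receptors Ngfr, Ntrk2 and Ntrk3, and the GDNF family co-receptors Gfra1 and Gfra2. Single cells were sorted from distal lung into plates and sequenced 1 by 1, and 5480 mesenchymal cells from 10 mice carry one of 16 subtype names given by the authors. There were 5 groups, each of 1 female and 1 male mouse. The labels put 4 of them at normal treatment, at embryonic day 18.5 (E18.5) and at postnatal days 1, 7 and 21 (P1, P7, P21), and the fifth at P7 after hyperoxia; normal treatment is called normal air here. Strain, genotype, oxygen level and length of exposure are not given in the sources used here. No label says whether mice of a group were littermates. The tests of change had group and sex as terms, so their p-values measure the spread left between mice after both. That spread was pooled over the groups of a fit. With 2 mice a group, an exact permutation test of 2 mice against 2 could not go below 0.333.

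Neurotrophins are secreted growth factors best known for keeping neurons alive and guiding their axons. Brain-derived neurotrophic factor (Bdnf) binds the receptor tyrosine kinase TrkB, encoded by Ntrk2, and neurotrophin-3 (Ntf3) binds mainly TrkC, encoded by Ntrk3. The p75 neurotrophin receptor, encoded by Ngfr, binds all neurotrophins and their uncleaved precursors. Glial cell line-derived neurotrophic factor (Gdnf) binds the membrane-anchored co-receptor Gfra1, and neurturin prefers Gfra2; both complexes signal through the kinase Ret. In airways and vessels, smooth muscle is a known source of neurotrophins for the nerves that run along it.

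Promoter sequences of 3 members are shown because Ngfr and Ntrk2 had their highest levels in adventitial fibroblasts and Ntf3 in vascular smooth muscle. The windows come from RefSeq on build GRCm38.p6, run from 250 bases before to 50 bases after an annotated start, and are written 5′ to 3′ on the gene's strand. Capitals mark GGGCGG on either strand, the core of a GC box. The Ngfr window lies at chr11:95587649-95587948 (minus strand), the Ntf3 windows at chr6:126164911-126165210 and chr6:126166695-126166994 (minus strand), and the Ntrk2 window at chr13:58806319-58806618 (plus strand).
Ngfr: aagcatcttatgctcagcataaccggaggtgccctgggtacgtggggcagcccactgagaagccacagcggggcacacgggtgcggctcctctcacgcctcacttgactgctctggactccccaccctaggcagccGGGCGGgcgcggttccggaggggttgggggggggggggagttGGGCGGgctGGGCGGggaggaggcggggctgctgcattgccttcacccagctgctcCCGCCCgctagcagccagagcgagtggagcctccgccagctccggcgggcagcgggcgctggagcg
Ntf3, first window: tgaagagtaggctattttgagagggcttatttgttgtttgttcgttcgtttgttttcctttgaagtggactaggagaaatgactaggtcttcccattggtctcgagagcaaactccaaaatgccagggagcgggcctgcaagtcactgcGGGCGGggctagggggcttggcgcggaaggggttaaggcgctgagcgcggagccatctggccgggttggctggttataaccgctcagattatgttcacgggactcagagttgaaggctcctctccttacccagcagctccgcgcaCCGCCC
Ntf3, second window: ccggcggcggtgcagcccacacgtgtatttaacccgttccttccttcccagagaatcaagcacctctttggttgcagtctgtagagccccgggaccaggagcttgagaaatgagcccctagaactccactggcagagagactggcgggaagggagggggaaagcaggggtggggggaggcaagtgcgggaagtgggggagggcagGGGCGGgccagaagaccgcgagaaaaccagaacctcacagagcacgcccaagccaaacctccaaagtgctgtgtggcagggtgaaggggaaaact
Ntrk2: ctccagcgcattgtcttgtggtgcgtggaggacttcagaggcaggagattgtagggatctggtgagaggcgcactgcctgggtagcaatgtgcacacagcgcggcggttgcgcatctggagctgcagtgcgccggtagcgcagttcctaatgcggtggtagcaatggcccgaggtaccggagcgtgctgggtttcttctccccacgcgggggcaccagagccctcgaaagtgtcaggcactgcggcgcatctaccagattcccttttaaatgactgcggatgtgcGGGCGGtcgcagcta
GGGCGG occurred 4 times in the Ngfr window, 2 times and 1 time in the Ntf3 windows and 1 time in the Ntrk2 window; 35.7% of the 32851 windows of the table held it. The Ngfr window was 71.7% G and C, above 92.6% of all windows, whose median was 52.7%. Ngfr and Ntrk2 each had 23 CpG pairs, against a median of 7. In all, 14 windows matched 6 members, 7 of them for Bdnf, 2 each for Ntf3 and Gdnf and 1 each for Ngfr, Ntrk2 and Gfra1; Ntrk3 and Gfra2 had no entry. The CArG box, the motif of serum response factor in smooth muscle genes, was in 1.63% of all windows and TGACGTCA, the cyclic AMP response element, in 1.79%. Neither was found in a member's window, and TATAAA (13.6% of all windows) was found in 1, of Gdnf. These matches describe letters in 1 window per start and say nothing on the factors that bind there.

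Depth was high for single cells, with a median of 774305 reads per cell in the table, and the 10 mice held between 294154721 and 671766116 reads. The reads carry no molecular identifiers, so counts of reads are not counts of molecules. Levels below are in CPM: a gene's reads, summed over the cells of 1 mouse and subtype and scaled to a common library total, for mice with at least 10 cells. Proliferating pericytes reached 10 cells in no mouse, which leaves 15 subtypes. Nearly all cells of each hyperoxia mouse came from a sequencing run that held no normal-air mouse, so run and oxygen cannot be told apart. The 4 normal-air males shared a run, as did the females of E18.5 and P1, so the male values at each age below compare mice within a run. Marker lists had their highest median in the subtype of the same name for alveolar, adventitial, pericyte, vascular and striated muscle names. The myofibroblast list was higher in early airway smooth muscle (median 14450 CPM) than in myofibroblasts (7791 CPM), and the airway smooth muscle list was highest in the 1 striated muscle library, of 16 cells; these lists share Hhip and Actg2. Sox10, which defines Schwann cells, averaged at most 0.0171 CPM in any subtype. S100b, of the same marker list, reached 71.5 CPM in the myofibroblasts of the normal-air P7 male. The subtypes were named by the authors from the same cells, so levels by subtype are a description with no test.

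Bdnf was highest in vascular smooth muscle, with a mean of 121 CPM ± 68.0 (SD, n = 8 mice), and ran from 30.0 to 214 CPM. Pericytes (54.5 ± 60.5, n = 8), myofibroblasts (48.5 ± 41.8, n = 6) and early airway smooth muscle (40.1 ± 45.6, n = 6) followed in CPM, and these 4 overlapped within their spread. Vascular smooth muscle was above pericytes in 4 of the 6 mice that had both, and above myofibroblasts in 5 of 6. Early adventitial fibroblasts had 8.10 CPM on average and early alveolar fibroblasts 1.81 CPM. Later airway smooth muscle (4.41 CPM, 2 mice) and the myofibroblast and smooth muscle precursor (2.14 CPM, 2 mice) lay among the fibroblast names. Bdnf reads were in 34.9% of vascular smooth muscle cells, as a mean of mice, once each cell was thinned to 100000 reads.

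Ntf3 was also highest in vascular smooth muscle, at 185 CPM ± 62.0 (SD, n = 8), with a lowest mouse of 101 CPM and a highest of 279 CPM. It was above early airway smooth muscle (80.5 ± 27.3, n = 6) in 6 of 6 mice that had both. The myofibroblast and smooth muscle precursor of E18.5 (50.9 CPM, 2 mice), later airway smooth muscle (40.1 CPM), later adventitial (36.0 CPM) and early adventitial fibroblasts (34.9 CPM ± 12.4, n = 8) lay close together. Pericytes, the other perivascular cell, had Ntf3 reads in 3 of 281 cells and a mean of 0.00899 CPM. Bdnf was thus present in vascular smooth muscle and pericytes, and Ntf3 only in the first of these above 0.04 CPM. Per kilobase of exon, Ntf3 in vascular smooth muscle (108 CPM per kb) was above Bdnf there (19.5 CPM per kb). The lengths join all annotated exons, 1714 bases for Ntf3 and 6217 for Bdnf, which can understate Bdnf. Part of this gap therefore comes from the lengths, and in CPM the mice of the 2 genes overlapped.

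Gdnf, which supports enteric and motor neurons, was low everywhere. Its highest level was 23.0 CPM ± 10.1 (SD, n = 2) in the myofibroblast and smooth muscle precursor, where the E18.5 female had 15.9 and the male 30.2 CPM. Myofibroblasts (5.68 ± 4.48, n = 6) and early airway smooth muscle (5.39 ± 5.23, n = 6) came next and did not differ beyond their spread. Later airway smooth muscle averaged 6.30 CPM, but the female had no read and 1 of 55 cells held all 566 reads of the male. Every other subtype averaged under 1 CPM. Vascular smooth muscle had 0.0561 CPM, from 1 cell.

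**Figure D1:**
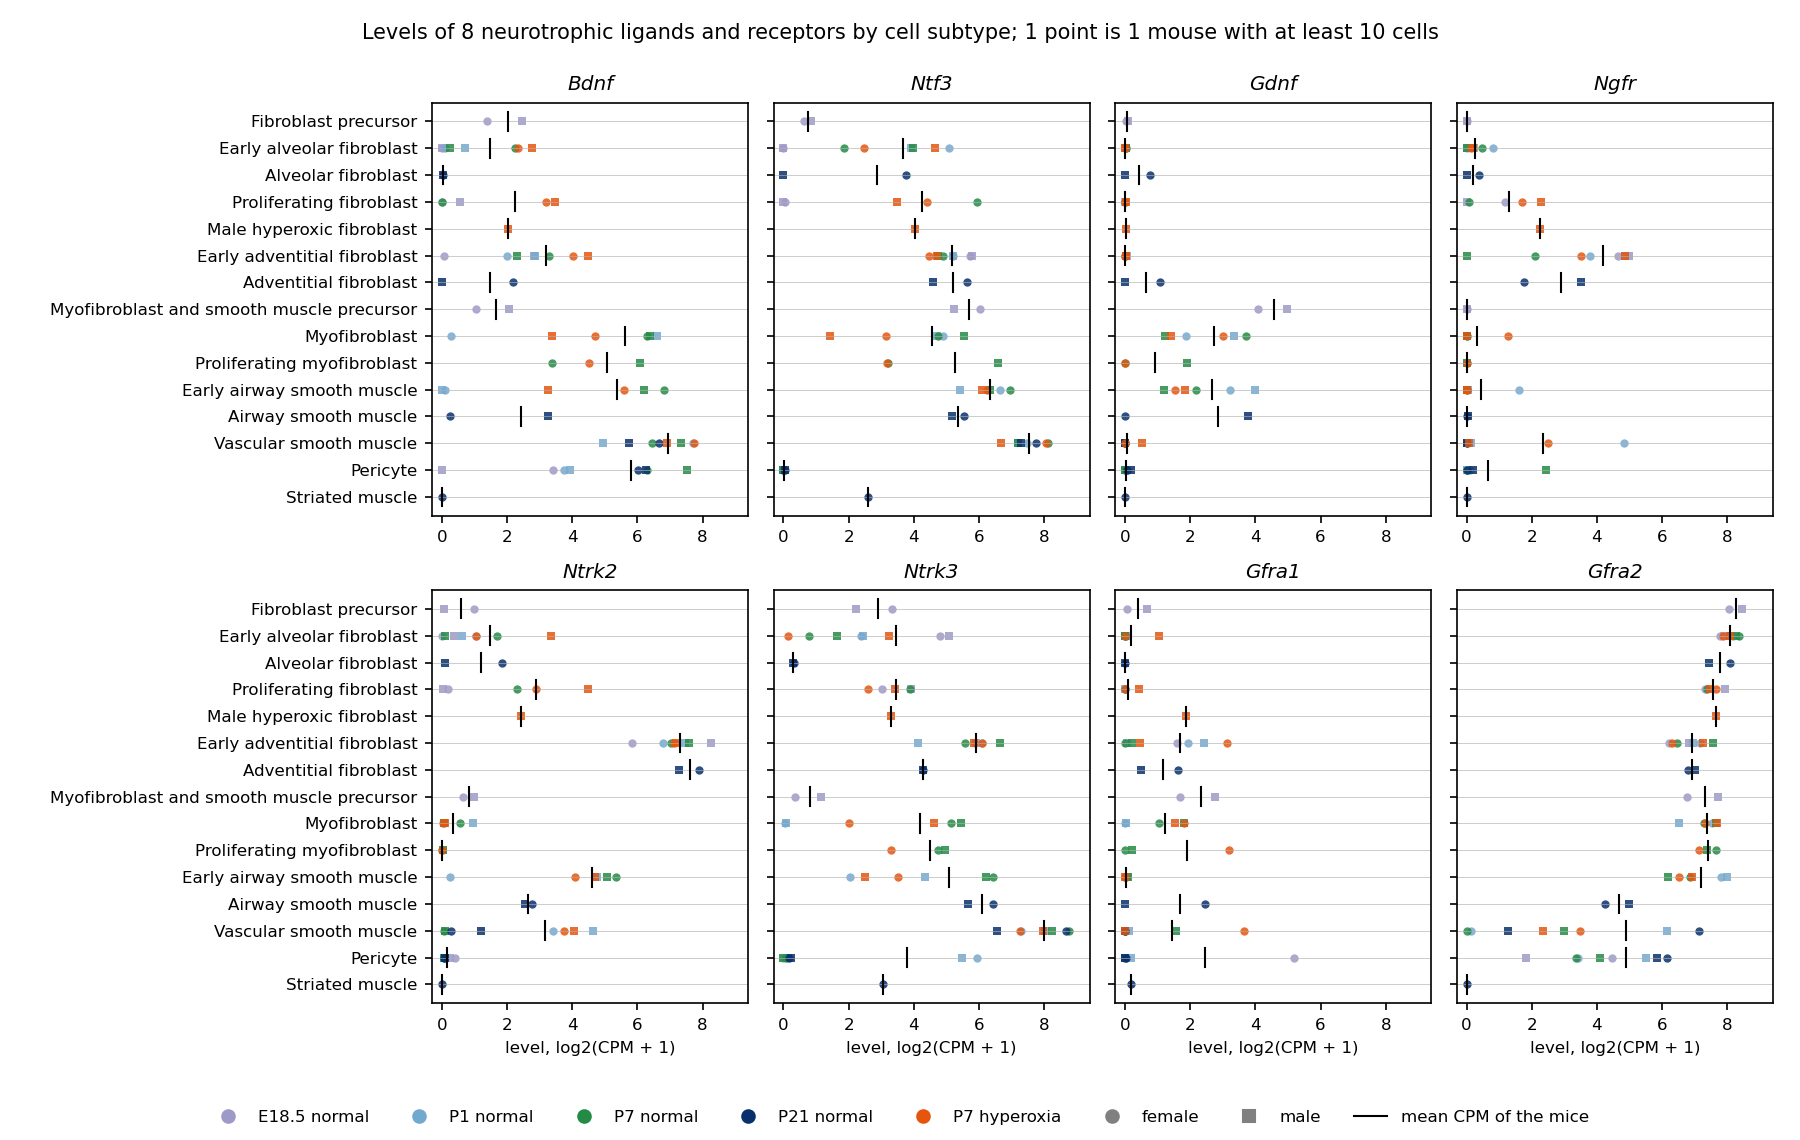
Levels of the 8 genes by subtype as log2(CPM + 1), 1 point for each mouse with at least 10 cells (circles female, squares male, colours the group) and a black bar at the mean CPM. Bdnf, Ntf3 and Ntrk3 are highest in vascular smooth muscle (121, 185 and 255 CPM), Ntrk2 and Ngfr in the adventitial names, and Gfra2 is above 100 CPM in 11 of the 15 subtypes shown.

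Among the receptors, Ntrk3 shared the vascular smooth muscle peak with the ligands Bdnf and Ntf3. Its mean there was 255 CPM ± 121 (SD, n = 8), between 92.2 and 433 CPM, and all 6 mice with both names had more in vascular smooth muscle than in early adventitial fibroblasts (58.9 ± 23.1, n = 8). Later airway smooth muscle (67.6 CPM, 2 mice) and early airway smooth muscle (32.6 CPM) lay near the adventitial value. After thinning, 60.3% of vascular smooth muscle cells had an Ntrk3 read. Pericytes averaged 13.0 CPM, but the median mouse had 0.108 CPM.

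Ntrk2 had another distribution: adventitial fibroblasts, the cells of the sheath around airways and vessels, were far above the rest. The later name had 194 CPM ± 57.3 (SD, n = 2) and the early name 156 ± 72.5 (n = 8), with a lowest mouse of 55.5 and a highest of 304 CPM. Early airway smooth muscle came next with 23.2 CPM, below early adventitial fibroblasts in 6 of 6 mice, and vascular smooth muscle had 7.95 CPM. Alveolar fibroblasts of both names, myofibroblasts and pericytes averaged under 2 CPM. Because the exon lengths used join all annotated transcripts (19292 bases for Ntrk2 and 30170 for Ntrk3), the per-kilobase levels of the Trk genes are understated: 10.0 CPM per kb for Ntrk2 in adventitial fibroblasts and 8.46 for Ntrk3 in vascular smooth muscle.

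Ngfr followed Ntrk2 into the adventitia at a lower level. Early adventitial fibroblasts had 17.2 CPM ± 12.1 (SD, n = 8), from 0 to 30.8 CPM, and later adventitial fibroblasts 6.45 ± 5.75 (n = 2). It was above early alveolar fibroblasts in 7 of 8 mice, the exception being the male P7 mouse in normal air, which had no Ngfr read in its adventitial cells. The vascular smooth muscle mean of 4.06 CPM came mainly from the female P1 mouse (27.7 CPM), and no other subtype averaged above 4 CPM. Schwann cells carry much p75, and Sox10 was read in at most 1 adventitial cell of each P7 mouse. The whole list of glial markers, which also holds S100b, summed to between 0.552 and 20.8 CPM in the adventitial class of the 10 mice. In the E18.5 female S100b alone had 13.9 CPM. The part of these markers in the Ngfr level was not tested.

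Gfra1 had a low mean in every subtype and was read in few cells. Its highest mean, 4.46 CPM in pericytes, was set by the female E18.5 mouse (35.5 CPM), where 1 of 14 cells held all the reads, and the precursor name had 4.03 CPM. Gfra2, in contrast, was abundant and broad. Fibroblast precursors of E18.5 had 306 CPM ± 59.2 (SD, n = 2) and early alveolar fibroblasts 269 ± 37.7 (n = 8, between 219 and 325 CPM), and the levels of these neighbours overlapped. Myofibroblasts (164 ± 41.6, n = 6), early airway smooth muscle (145 CPM) and early adventitial fibroblasts (119 ± 40.0, n = 8) formed a middle range. Vascular smooth muscle (28.9 CPM), pericytes (28.7 CPM) and later airway smooth muscle (24.4 CPM) were lowest apart from striated muscle, which had none in its 1 library.

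**Figure D2:**
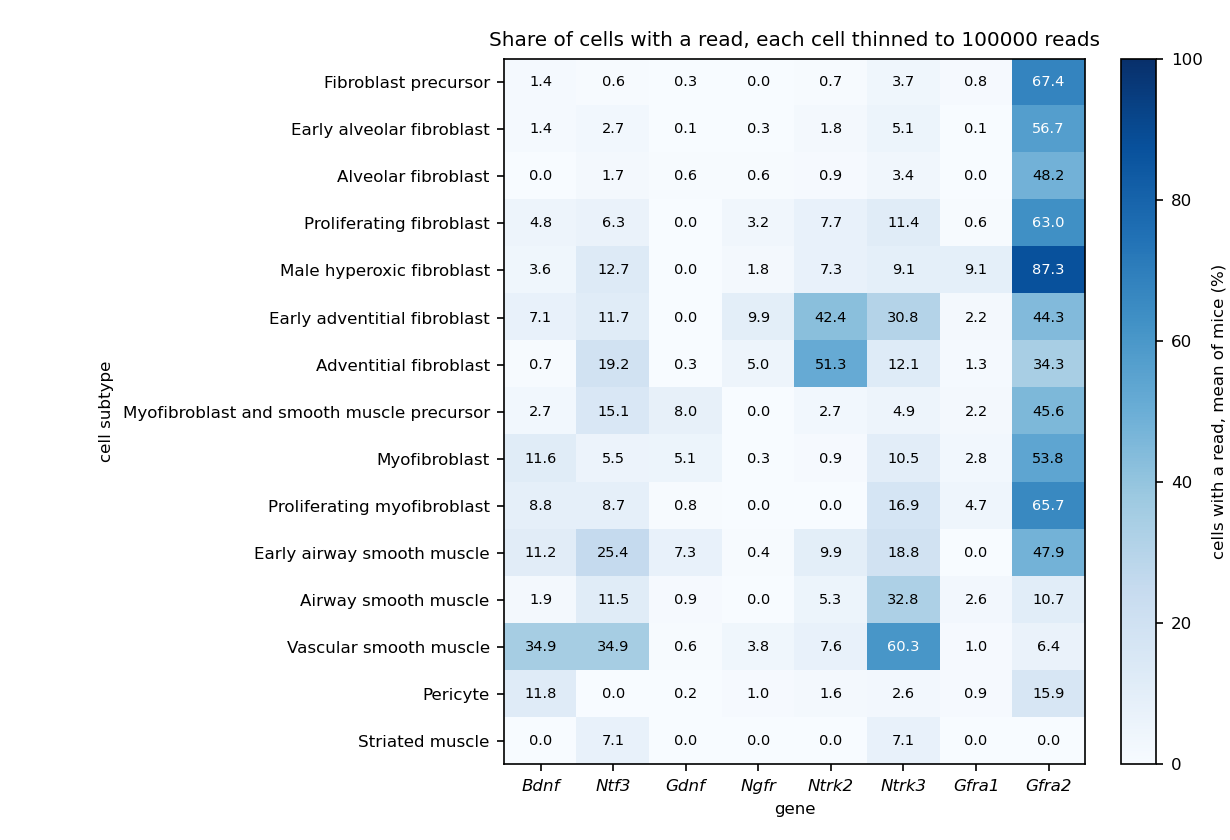
Share of cells with at least 1 read of each gene, in percent, as the mean of mice with at least 10 cells; each cell was thinned to 100000 reads, which left out 168 shallower cells. Ntrk3 reached 60.3% of vascular smooth muscle cells, Ntrk2 51.3% of later adventitial fibroblasts and Gfra2 67.4% of fibroblast precursors and 87.3% of the male hyperoxic fibroblast (1 mouse), while Ngfr stayed at or below 9.9% in every subtype.

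A level summed over cells hides how few cells can carry it. Of the 64 mouse and subtype libraries with at least 10 cells, 36 had Ngfr reads, and in 30 of these a single cell gave 50% or more of them. For Gfra2 this was so in 12 of 62 libraries with reads, for Ntf3 in 22 of 54, for Ntrk3 in 25 of 62 and for Bdnf in 31 of 57. Ntrk2 (39 of 60), Gdnf (27 of 36) and Gfra1 (30 of 37) resembled Ngfr in this.

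Ligand and receptor reads were also counted cell by cell, with no test of whether they met more often than their frequencies give. Among 201 vascular smooth muscle cells, 70 had Ntf3 reads, 136 had Ntrk3 reads and 56 had both, which is 80% of the Ntf3 cells and 41.2% of the Ntrk3 cells. Bdnf reads were in 68 cells, of which 48 also had Ntrk3 and 24 also had Ntf3 reads, while Ntrk2, its own kinase receptor, was read in 21. In the 598 early adventitial fibroblasts, 273 had Ntrk2, 243 had Ntrk3 and 115 had both. Ngfr was read in 63 of them, 30 together with Ntrk2. These counts are unthinned, and deeper cells hold more reads of every gene.

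Changes with age and oxygen were tested on reads summed per mouse in 6 classes, in which early and later names of alveolar fibroblasts, adventitial fibroblasts and airway smooth muscle were joined. In 19 comparisons edgeR's quasi-likelihood test called no member at an adjusted p under 0.05. The values that follow are therefore descriptions of 2 mice against 2, and a p that misses the threshold does not show that levels were equal.

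From E18.5 to P1, 17 of 24 pairs of member and class passed the filter on low counts; 11 had a higher and 6 a lower fitted level at P1. edgeR called 0 of the 17, with 2 at an unadjusted p under 0.05, and DESeq2 called 2. Over all genes the share called was 6.16% in alveolar fibroblasts, 0.17% in adventitial fibroblasts and 0.042% in pericytes. The mice of both ages did not overlap in 11 pairs (64.7%), against 44.2% over all genes and classes. The members' median log2 difference was 0.66, where that of all genes was 1.35 in alveolar fibroblasts, 0.16 in adventitial fibroblasts and 0.07 in pericytes.

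Ntf3 in alveolar fibroblasts was at 0 in both E18.5 mice (14 and 24 cells) and at 33.0 and 14.0 CPM in the female and male at P1. Both P1 mice were above both E18.5 mice, at least 116-fold over a floor of 3 reads in the E18.5 group, with an adjusted p of 0.20 in edgeR's test. At P1 only 24 of 362 and 13 of 393 cells carried Ntf3, and 1 cell gave 18.2% and 43.0% of the reads. With so few carriers, 14 and 24 cells may hold none, and the floor counts reads and not cells. Beside it, epithelial markers summed to 1031 CPM in the female and 25.9 CPM in the male at E18.5, from 3 and 2 of 6 genes, and to 121 and 100.3 CPM at P1, from all 6. Immune markers summed to 248 and 9.28 CPM at E18.5 and to 17.4 and 18.1 CPM at P1. The part of either list in the result was not tested. In pericytes Ntrk3 had no read and 1 read at E18.5, and 60.1 and 43.2 CPM at P1. A single cell gave 99.7% of the reads in each P1 mouse, so this difference rests on 1 cell per mouse (adjusted p = 0.83 in edgeR's test). Alveolar Ntrk3 at E18.5 (27.2 and 33.0 CPM) likewise came to 100% and 99.6% from 1 cell. Adventitial Ntf3 (52.2 and 54.4 CPM at E18.5, 36.2 and 35.5 CPM at P1) and Ngfr (24.2 and 30.8, then 12.9 and 28.2 CPM) did not pass the test. At E18.5, 3 of 26 and 1 of 29 adventitial cells held Ntf3 reads, and 1 cell gave 85.5% and 100% of them.

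From P1 to P7, 37 of 48 pairs were tested, 21 fitted higher and 16 lower at P7. edgeR called 0, with 6 at an unadjusted p under 0.05, and DESeq2 called 4. Over all genes the share called was 0% in each of the 6 classes. Mice of the 2 ages did not overlap in 18 pairs (48.6%), against 37.2% over all genes and classes, and the median log2 difference of the members was 0.30, where those of all genes in the 6 classes lay between -0.07 and 0.18.

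In airway smooth muscle Bdnf had 2 reads in the female and none in the male at P1 (38 and 23 cells), and 111 and 72.9 CPM at P7, where 18 of 75 and 13 of 64 cells carried it. The pooled ratio was 2542, with a 95% counting interval of 704 to 20995 that covers counting error only, as do the intervals of ratios below, and not the spread between mice or amplification. The adjusted p in edgeR's test was 0.21. Ntrk3 in the same cells was at 3.12 and 19.2 CPM at P1 and at 85.4 and 72.7 CPM at P7 (log2 difference 2.76, SE 1.02, adjusted p = 0.92, edgeR). Gfra2 ran the other way, from 220 and 255 CPM to 115 and 71.5 CPM (log2 difference -1.37, SE 0.478, adjusted p = 0.92, edgeR). In all 3 genes both P7 mice stood on one side of both P1 mice.

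Myofibroblasts, the contractile fibroblasts of alveolar septation, showed the same for Ntrk3: 1 and 2 reads at P1 (39 and 32 cells) and 34.1 and 43.1 CPM at P7, in 35 of 155 and 43 of 184 cells. The pooled ratio was 686 (95% counting interval 235 to 3328), with an adjusted p of 0.36 in edgeR's test, and of 0.004 and 0.00015 when the female or the male P1 mouse was left out. In those fits the lone P1 mouse was assumed to vary like the mice of the other groups. Bdnf in myofibroblasts was at 77.3 and 82.5 CPM at P7, but at 0.223 and 96.6 CPM at P1, where 1 cell gave 98.3% of the male's reads, so the ages overlapped. Pericyte Bdnf stood at 12.5 and 14.4 CPM at P1 and at 77.2 and 182 CPM at P7 (log2 difference 3.33, adjusted p = 1, edgeR). Ntrk2 in vascular smooth muscle had 9.71 and 24.1 CPM at P1 and 1 and 2 reads at P7. Neuron markers there summed to 200.2 and 41.9 CPM at P1 and to 25.0 and 5.56 CPM at P7. Adventitial Ngfr was at 12.9 and 28.2 CPM at P1, and at 3.13 and 0 CPM at P7, without overlap (log2 difference -3.26, SE 1.94, adjusted p = 0.86, edgeR). Neuron markers in those cells summed to 5.12 and 4.20 CPM at P1 and to 1.57 and 0.259 CPM at P7, and endothelial markers to 3.73 and 1.83 CPM and to 0.148 and 0.210 CPM. Between the same ages glial markers went from 35.4 and 8.35 CPM to 58.5 and 76.4 CPM in myofibroblasts, epithelial markers from 10.1 and 5.02 CPM to 41.1 and 24.7 CPM in airway smooth muscle, and immune markers from 10.7 and 0.189 CPM to 34.0 and 53.3 CPM in pericytes. The part of these lists in the values of this step was not tested.

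**Figure D3:**
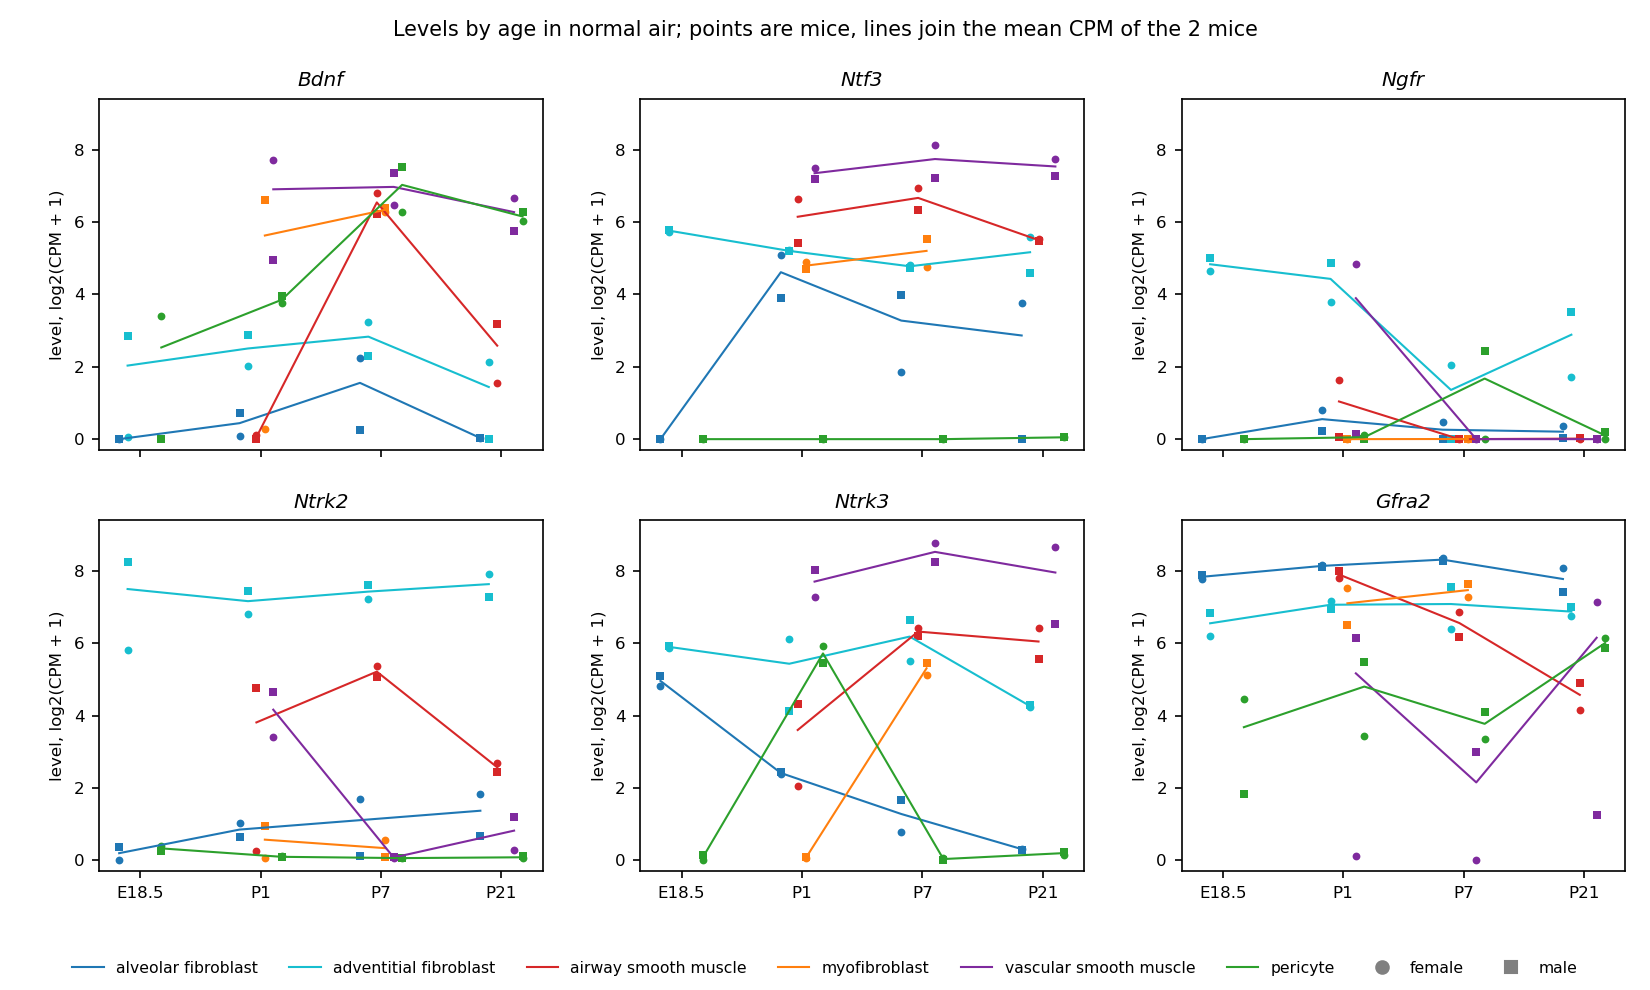
Levels of 6 genes by age in normal air as log2(CPM + 1), for 6 cell classes; points are mice with at least 10 cells (circles female, squares male) and lines join the mean CPM of the 2 mice. Bdnf in airway smooth muscle has its highest mean at P7 (92.2 CPM), Ntrk2 is highest in adventitial fibroblasts at all 4 ages, and Ntf3 and Ntrk3 are highest in vascular smooth muscle at P1, P7 and P21.

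From P7 to P21, 30 of 40 pairs were tested; 2 of them had no read in either group, and 14 were fitted higher and 14 lower. edgeR called 0, with 3 at an unadjusted p under 0.05, and DESeq2 called 4. Over all genes 0.0702% were called in alveolar fibroblasts, 0.124% in adventitial fibroblasts, 1.13% in airway smooth muscle, 0.0886% in vascular smooth muscle and 0.0504% in pericytes. No overlap was seen in 14 pairs (46.7%), against 42% over all genes and classes. The members' median log2 difference was -0.12, and the medians of all genes in the 5 classes ran from -0.09 to 0.20.

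The 3 pairs below an unadjusted 0.05 were all lower at P21. Bdnf in airway smooth muscle was at 1.96 and 8.03 CPM at P21 against 111 and 72.9 CPM at P7 (log2 difference -3.59, SE 1.30, adjusted p = 0.36, edgeR). Gfra2 there had 16.9 and 28.7 CPM at P21 against 115 and 71.5 CPM (log2 difference -1.73, SE 0.487, adjusted p = 0.21, edgeR). Ntrk3 in adventitial fibroblasts had 17.8 and 18.6 CPM against 44.5 and 98.9 CPM at P7 (log2 difference -1.83, SE 0.681, adjusted p = 0.43, edgeR). Each of these genes was thus higher in both younger mice than in both older ones. Ntrk3 in airway smooth muscle did not share this, with 84.2 and 46.1 CPM at P21.

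Vascular smooth muscle kept its ligands and receptor at the later ages, though with a wide spread. Ntf3 stood at 178 and 146 CPM at P1, 279 and 147 CPM at P7, and 215 and 154 CPM at P21. Ntrk3 stood at 154 and 261, 433 and 302, and 402 and 92.2 CPM at the same ages. Bdnf stood at 208 and 30.0, 87.0 and 162, and 100 and 52.7 CPM. The ages overlapped except for Ntrk3 between P1 and P7. Pericyte Bdnf remained readable at P21 (64.1 and 76.2 CPM), and adventitial Ntrk2 stood between 55.5 and 304 CPM over the 8 normal-air mice with no age apart from the others.

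Hyperoxia, which injures the newborn lung and is used to model bronchopulmonary dysplasia, was compared with normal air at P7. Of 40 pairs 34 were tested, 15 fitted higher and 19 lower in hyperoxia. edgeR called 0, with 3 at an unadjusted p under 0.05, and DESeq2 called 3. Over all genes the share called was 0% in each of the 5 classes. The thinned share of cells counts carriers and not reads. By this share both hyperoxia mice were above both normal-air mice in 20 of the 40 pairs and below them in 4, and they overlapped in 16. No test was made of these shares. The same count was not made over all genes, so it cannot be read as particular to the members. Mice did not overlap in CPM in 17 pairs (50%), against 41.8% over all genes and classes, and the members' median log2 difference was -0.23, where those of all genes lay between -0.06 and 0.12.

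Ntrk3 in airway smooth muscle was at 10.5 and 4.69 CPM in the hyperoxia female and male and at 85.4 and 72.7 CPM in normal air. Both hyperoxia mice were below both normal-air mice (log2 difference -3.41, SE 1.02, adjusted p = 1, edgeR). After thinning, 8.77% (95% Wilson interval 3.81 to 18.9) and 9.52% (2.65 to 28.9) of the hyperoxia cells had an Ntrk3 read, against 45.3% (34.6 to 56.6) and 34.9% (24.3 to 47.2). These intervals cover counting error only. Bdnf in the same class was at 47.3 and 8.66 CPM against 111 and 72.9 CPM, but its shares of cells, 15.8% and 14.3% against 21.3% and 15.9%, lay within each other's intervals. Neuron markers summed to 5.19 and 314 CPM in hyperoxia and to 0.0875 and 2.67 CPM in normal air in these libraries, from 2, 2, 2 and 1 of 5 genes; nearly all of the highest value was Tubb3 (314 CPM, in 6 of 22 cells), while Snap25, Elavl4 and Stmn2 were each under 3 CPM. Glial markers summed to 66.0 and 45.9 CPM against 20.3 and 18.3 CPM, with S100b the largest part in each mouse and Sox10 at 0 in both hyperoxia mice. Endothelial markers summed to 9.21 and 5.44 CPM against 0.0681 and 0.128 CPM. The part of these lists in the results was not tested.

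In myofibroblasts the ligands Ntf3 and Bdnf were lower in each hyperoxia mouse, but Gdnf was not. Gdnf overlapped in CPM, at 7.04 and 1.67 in hyperoxia against 12.3 and 1.34 in normal air. Its thinned share of cells was higher in hyperoxia, at 10.3% and 6.67% against 3.29% and 2.81%. Ntf3 was at 7.90 and 1.69 CPM against 26.1 and 45.6 CPM in normal air (log2 difference -3.14, SE 1.05, adjusted p = 0.72, edgeR). The shares of cells with an Ntf3 read were 6.90% and 2.22% against 4.61% and 9.55%, and overlapped. Bdnf was at 24.9 and 9.45 CPM against 77.3 and 82.5 CPM (log2 difference -2.05, SE 1.84, adjusted p = 0.93, edgeR). The fitted difference turned to 0.63 once the normal-air female was left out. The normal-air male left in that fit, at 82.5 CPM, was still above both hyperoxia mice. That fit also held a sex term and the P1 mice, whose female and male had Bdnf at 0.223 and 96.6 CPM. The shares of cells with a Bdnf read were 13.8% and 13.3% against 14.5% and 14.6%, so the CPM differed more than the share of cells did. Ntrk3 was at 3.02 and 23.8 CPM against 34.1 and 43.1 CPM. Neuron markers summed to 0 and 70.5 CPM against 0.0482 and 0.225 CPM here, glial markers to 32.7 and 33.2 CPM against 58.5 and 76.4 CPM, and immune markers to 131 and 88.7 CPM against 71.6 and 38.7 CPM; their part was not tested.

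In CPM, adventitial fibroblasts differed in the other direction for Ngfr and Bdnf. Ngfr was at 10.4 and 27.9 CPM in hyperoxia and at 3.13 and 0 CPM in normal air, without overlap (log2 difference 3.06, SE 1.94, adjusted p = 0.69, edgeR). Reads were in 12.1% (95% Wilson interval 7.24 to 19.7) and 15.5% (10.0 to 23.2) of thinned hyperoxia cells, against 4% (1.10 to 13.5) and 0% (0 to 6.64). The hyperoxia levels lay within the range of the E18.5 and P1 mice, 12.9 to 30.8 CPM, for the male and just under it for the female. Bdnf was at 15.3 and 21.3 CPM against 8.36 and 3.89 CPM (log2 difference 1.36, adjusted p = 0.91, edgeR). The thinned shares of cells with a Bdnf read were close. They were 10.3% (5.84 to 17.5) and 10.3% (6.02 to 17.2) against 10% (4.35 to 21.4) and 5.56% (1.91 to 15.1), and the intervals overlapped. Mesothelial markers summed to 597 and 676 CPM in the hyperoxia libraries and to 240 and 0.0324 CPM in normal air, from 4, 4, 4 and 2 of 4 genes. Without the 8 and 36 cells that held a mesothelial read, Ngfr stood at 11.2 and 38.3 CPM in hyperoxia, and at 3.49 and 0 CPM in normal air without 4 and 2 such cells. Neuron markers summed to 12.3 and 71.8 CPM against 1.57 and 0.259 CPM, and glial markers to 7.44 and 13.7 CPM against 11.1 and 2.53 CPM. Endothelial markers summed to 22.3 and 57.7 CPM against 0.148 and 0.210 CPM, and immune markers to 15.1 and 18.6 CPM against 33.2 and 19.0 CPM. The part of these lists in the Ngfr and Bdnf values was not tested. Ntrk2 in these cells was at 138 and 144 CPM in hyperoxia against 149 and 193 CPM, while its share of cells was higher in hyperoxia (59.8% and 53.4% against 44% and 42.6%), so no order was read.

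Vascular smooth muscle had Ntrk2 at 12.5 and 15.6 CPM in hyperoxia against 1 and 2 reads in normal air. The pooled ratio was 257 (95% counting interval 87.5 to 1253; adjusted p = 1, edgeR), and 1 cell gave 91.7% and 77.3% of the hyperoxia reads, with 3 of 22 cells positive in each mouse. Neuron markers summed to 45.4 and 74.5 CPM against 25.0 and 5.56 CPM in this class, glial markers to 15.5 and 13.5 CPM against 3.13 and 0.779 CPM, epithelial markers to 101.9 and 95.4 CPM against 60.9 and 33.3 CPM, and immune markers to 13.0 and 20.1 CPM against 2.19 and 12.2 CPM; their part was not tested. Bdnf, Ntf3 and Ntrk3 in this class had adjusted p-values of 1 in edgeR's test, and Ntrk3 stood at 151 and 248 CPM against 433 and 302 CPM. Gfra2 was read in a larger thinned share of cells in both hyperoxia mice in all 5 classes, and the same count was not made over all genes. In vascular smooth muscle this rested on 1 of 21 and 2 of 21 cells against 0 of 26 and 1 of 28. In adventitial fibroblasts the shares were 51.4% and 64.7% against 36% and 50%. In myofibroblasts the shares were 67.2% (95% Wilson interval 54.4 to 77.9) and 80.0% (66.2 to 89.1) against 38.2% (30.8 to 46.1) and 41.6% (34.6 to 48.9), while the CPM overlapped (157 and 203 against 154 and 198). In alveolar fibroblasts Gfra2 was at 233 and 272 CPM in hyperoxia and 325 and 309 CPM in normal air, but its share of cells went the other way (76.1% and 77.6% against 63.8% and 57.2%), so no order was read. The male hyperoxic fibroblast, a name borne by 55 cells of the hyperoxia male alone, had Gfra2 at 199 CPM and Ngfr at 3.73 CPM.

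**Figure D4:**
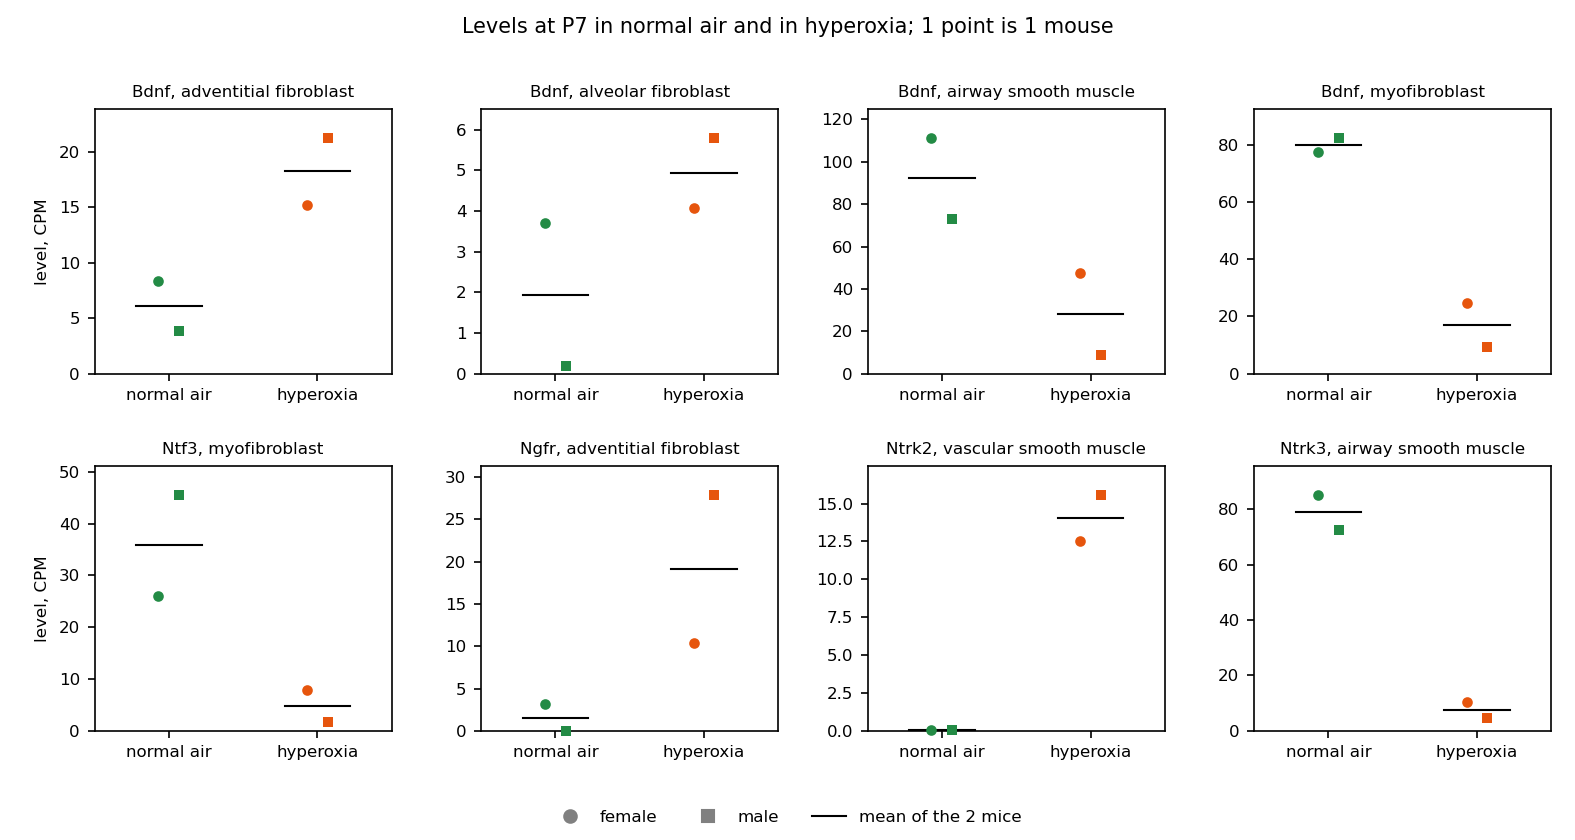
Levels in CPM at P7 for 8 pairs of gene and class, with normal air on the left and hyperoxia on the right of each panel; points are mice (circles female, squares male) and bars the mean of 2. In each panel the mice do not overlap: Bdnf and Ngfr are higher in hyperoxia in adventitial fibroblasts, whereas Bdnf, Ntf3 and Ntrk3 are lower in the contractile classes shown.

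An interaction term, fitted with each mouse as a block, compared a member's change in alveolar fibroblasts with that in another class. edgeR called no member in 8 such fits, with 3 pairs of member and class, of Bdnf and Gfra2, at an unadjusted p under 0.05. The Bdnf pairs share the same alveolar libraries. For P7 to P21 the share of all genes called was 0.0668% for adventitial fibroblasts, 0% for airway smooth muscle, 0% for vascular smooth muscle and 0.00711% for pericytes. For hyperoxia it was 0% for adventitial fibroblasts, 0.0132% for airway smooth muscle, 0.013% for myofibroblasts and 0% for vascular smooth muscle. Bdnf in hyperoxia had log2 differences of -4.54 in airway smooth muscle (adjusted p = 0.98) and -4.81 in myofibroblasts (adjusted p = 0.81) relative to alveolar fibroblasts in edgeR's test, where Bdnf stood at 4.07 and 5.81 CPM in hyperoxia and 3.70 and 0.180 CPM in normal air. Gfra2 from P7 to P21 had a log2 difference of 2.72 in pericytes relative to alveolar fibroblasts (adjusted p = 0.79, edgeR).

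The other genes of these pathways were taken from 6 lists of 52 genes, of which Gfral, Rtn4r and Alk are not rows of the table. Between 31 and 44 were tested per comparison, and edgeR called 6 pairs of gene and comparison, 5 higher and 1 lower. From E18.5 to P1, 2 of 44 rose in alveolar fibroblasts, among them Pcsk5, a proprotein convertase. Pcsk5 was at 0 reads at E18.5 and at 36.2 and 30.6 CPM at P1, at least 182-fold higher (adjusted p = 0.028). Mmp3, a metalloproteinase that can cleave proneurotrophins, was the 1 of 44 that rose in adventitial fibroblasts, at this step (at least 87.0-fold, adjusted p = 0.015) and again from P7 to P21, from 9.09 and 30.0 CPM to 1136 and 1528 CPM (log2 difference 6.48, adjusted p = 0.0043). In airway smooth muscle Mmp3 also rose from P7 to P21, from 0 to 32.0 and 603 CPM. The pooled level was at least 16600-fold higher (adjusted p = 0.0026, edgeR), with 29125 of the 30857 reads in the male. The adventitial marker list summed to 1840 CPM in the lower and 3208 CPM in the higher mouse of later airway smooth muscle. The part of this list in the Mmp3 value was not tested. Midkine (Mdk), a heparin-binding growth factor, fell in this class between the same ages. It fell by 2.57 on the log2 scale (adjusted p = 0.013, edgeR), from 1216 and 1299 CPM to 129 and 204 CPM. None of the listed genes passed edgeR's test in the other 15 comparisons, hyperoxia included; the lists' median log2 differences ran from -0.39 (vascular smooth muscle, P7 to P21) to 0.89 (alveolar fibroblasts, E18.5 to P1).

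Levels of the partner genes varied widely by subtype. Ret, the kinase shared by the GDNF family co-receptors, reached only 3.07 CPM, in later adventitial fibroblasts, and Gfra3 at most 0.0146 CPM. Ncam1, an adhesion molecule that can also bind Gdnf with Gfra1, reached 196 CPM in proliferating fibroblasts. Gfra4 had its highest mean in vascular smooth muscle (34.3 CPM ± 26.5, n = 8), where Gfra2 was low. Neurturin (Nrtn), the ligand of Gfra2, was highest in striated muscle (65.9 CPM, 1 mouse). The neurotrophin Ntf5 reached 0.408 CPM, in the male hyperoxic fibroblast. Sort1, the sortilin co-receptor of Ngfr for proneurotrophins, reached 298 CPM in later alveolar fibroblasts, and its relative Sorcs2 40.1 CPM in later adventitial fibroblasts. The Ngfr-binding protein Maged1 was at 856 CPM in fibroblast precursors and necdin (Ndn) at 413 CPM in pericytes.

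Likeness of pattern was measured as Pearson's r of log2(CPM + 1) over the 64 libraries, among 12297 genes with at least 10 CPM in 3 or more libraries; libraries share mice and depth, and no test was made. Ntf3 was most like Pcdh7 and Map1b (both 0.84), Tnfrsf12a and Igfbp5 (both 0.79) and Creb5 (0.76). Ntrk3 was most like Map3k7cl (0.71), Gpc6 (0.71), Adam33 (0.70), Igfbp5 (0.70) and 2900026A02Rik (0.70). Ntrk2 was most like Cdon (0.80), Dner (0.79), Rasd2 (0.78), Kctd12 (0.77) and Col1a1 (0.77), and Ngfr was most like Rtl3 (0.72), Agtr2 (0.71), Igfbp2 (0.69), Stc2 (0.69) and Scn2b (0.68). Gfra2 was most like Ptch1 (0.83), the Hedgehog receptor, then Tmem132c (0.81), Col6a2 (0.78), Robo2 (0.76) and Arhgap28 (0.76). Bdnf was most like Tmem26 (0.67), Filip1l (0.66), Foxp1 (0.66), Stom (0.65) and Rrad (0.65), and Gdnf was most like Foxq1, Met, Trim67, Ifitm10 and Ibsp (0.75 to 0.78). Gfra1 did not reach 10 CPM in 3 libraries. Among the members themselves r was 0.65 for Ngfr and Ntrk2, 0.56 for Ntf3 and Ntrk3, and -0.40 for Bdnf and Gfra2.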

How the data were processed

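Reads of single sorted cells, made into libraries with Tn5 on plates, were counted per gene by the authors, who deposited 1 table of raw counts; per the submitters' processing notes STAR 2.5.2b and HTSeq 0.10 were used. The notes name the build GRCh38, a human build, for these mouse cells, so no coordinate was taken from the files. Groups, mice and subtypes come from the labels, and 71 of the 5480 cells carry a CD31 or CD45 sort label. Reads were summed by mouse and class (at least 10 cells) and tested with edgeR 4.0.16 (quasi-likelihood test, TMM, filterByExpr, sex and group as terms, all groups of a class in 1 fit), with Benjamini-Hochberg adjustment over all genes tested and a threshold of 0.05. A group without reads was set to 3 reads over the group for fold bounds. Shares of cells were taken after thinning to 100000 reads. CPM is per gene; per-kilobase values use the union of annotated exons. The genes named are the 8 members, the listed pathway genes called by the test, the highest of each list and the 5 genes of highest Pearson r with each member. Some genes of the lists are not reported here. Members and lists were chosen with earlier results of these data known. Alternatives (DESeq2 1.42.0, no filter, at least 20 cells, no sex term, only the 4 mice compared, mean of cells, no CD31 or CD45 sorts, leaving out each mouse) are in the closing section; leaving out mice for the highest subtype and the interactions, and leaving out cells with mesothelial reads, were added after seeing the data. The tests were checked on simulated data. R 4.3.3, Python 3.11.15 and SciPy 1.17.1 were used.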

Additional observations from a re-analysis of the deposited data

Results flagged for a closer look

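In each case below both mice of one group stood above both mice of another group in one class and below them in another class. The cases were picked for this from the same data. The difference between those classes was not tested, and values are mean CPM of 2 mice. Ntrk3 from E18.5 to P1 went from 0.0495 to 51.6 in pericytes and from 30.1 to 4.33 in alveolar fibroblasts. Ntrk3 from P1 to P7 went from 11.1 to 79.0 in airway smooth muscle and from 0.0555 to 38.6 in myofibroblasts, but from 51.6 to 0.0249 in pericytes. Ntrk2 from P1 to P7 went from 13.0 to 36.1 in airway smooth muscle and from 16.9 to 0.0560 in vascular smooth muscle. Gfra2 from P7 to P21 went from 12.7 to 63.2 in pericytes and from 93.2 to 22.8 in airway smooth muscle. Bdnf at P7 stood at 6.12 in normal air and 18.3 in hyperoxia in adventitial fibroblasts, at 92.2 and 28.0 in airway smooth muscle, and at 79.9 and 17.2 in myofibroblasts. The pericyte and E18.5 alveolar values of Ntrk3 rest on 1 cell in each mouse. The P1 value of Ntrk2 in airway smooth muscle also rests on 1 cell. The female had 5 reads (0.192 CPM), and 1 cell gave 99.9% of the male's 686 reads (25.9 CPM).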

How the results depend on the processing

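DESeq2 called 2 members from E18.5 to P1 (Ntf3 in alveolar fibroblasts, Ntrk3 in pericytes), 4 from P1 to P7 (Bdnf in airway smooth muscle, Ntrk3 in myofibroblasts and pericytes, Ntrk2 in vascular smooth muscle), 4 from P7 to P21 (Bdnf in alveolar fibroblasts and airway smooth muscle, Gfra2 in airway and vascular smooth muscle) and 3 in hyperoxia (Ntrk3 in airway smooth muscle, Ntf3 in myofibroblasts, Ntrk2 in vascular smooth muscle), where edgeR called 0; the cause was not tested. Leaving out 1 mouse at a time, edgeR called 0 to 2 members from P1 to P7, with Ntrk3 in myofibroblasts called without the P1 female, and Ntrk3 and Bdnf there without the P1 male. For hyperoxia it also called 0 to 2, Bdnf in myofibroblasts without the P1 female, and Bdnf and Ntf3 there without the P1 male; for the other steps and the interactions it called 0. The log2 difference of Bdnf in myofibroblasts in hyperoxia ran from -6.25 without the hyperoxia female to 0.63 without the normal-air P7 female, and the cause was not tested. In CPM the normal-air P7 male was above both hyperoxia mice, so the sign changed in the fit and not in the levels. Of 353 recomputed log2 differences of 21 named values, 336 kept direction and side of the threshold, 16 passed it and 1 reversed. The 21 were chosen from these same data, by an unadjusted p under 0.05 in edgeR's main fit or because the text names them. None passed the threshold in that fit, so a value counted as kept when its sign held and it again did not pass. The count is therefore no independent check of the values. The highest subtype was the same for 5 to 8 of 8 members when 1 mouse was left out. A subtype was ranked only with at least 2 mice. Both precursor names had only the 2 E18.5 mice, and later adventitial fibroblasts only the 2 P21 mice. Leaving out an E18.5 mouse was therefore bound to change Gfra2 and Gdnf, and leaving out a P21 mouse to change Ntrk2. These changes say nothing on how far the levels depend on 1 mouse. Gfra1, highest in pericytes, also changed without the E18.5 female. Gfra2 was read in 71.6% of fibroblast precursors unthinned and 65.2% at 50000 reads, against 67.4%. Of the 35 genes of like pattern, 12 were also named by Spearman's rho, 23 with a pseudocount of 10 and 22 in normal air alone. Adventitial Ntrk2 in hyperoxia averaged 149 CPM without cells with mesothelial reads and 141 CPM with them. Sex, which pairs 1 mouse of each group, was a term of the fits, and without it edgeR also called 0 members in each step; the groups share no other replicate name. Few cells carried a read of Gfra1, Gdnf or Ngfr, so their levels rest on single cells in many libraries.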
